A study of Mus musculus with 10 samples.

Results

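The genes described here are 10 regulators and markers of the epithelial to mesenchymal transition, chosen by symbol from the deposited count table: Vim, Twist1, Zeb1, Zeb2, Snai1, Snai2, Cdh2, Esrp1, Esrp2 and Grhl2. All 10 are among the 15624 genes listed and among the 13006 with enough counts to be tested. In this transition, carcinoma cells lose junctions and polarity and take on features of migrating mesenchymal cells. The transcription factors of the SNAIL, ZEB and TWIST families bind E-box sequences and repress epithelial genes, while GRHL2 and the ESRP splicing regulators maintain the epithelial state. In pancreatic ductal adenocarcinoma the program is known for accompanying a basal or quasi-mesenchymal tumour subtype. Fibroblasts, macrophages, endothelium and Schwann cells express several of the mesenchymal members too.

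RNA came from tumour epithelium of KPFSR mice with established pancreatic ductal adenocarcinoma, which the series' design text says was collected by laser capture microdissection of frozen tissue. Corn oil, the vehicle, was given in 4 samples and tamoxifen in 6. From knowledge of the model rather than the labels, both groups carry the same alleles, among them Flp recombinase driven in the pancreas by the Pdx1 promoter, a floxed Slc7a11 gene, and a tamoxifen-dependent Cre that Flp switches on. Ages, doses, the time after dosing and the animal behind each sample are not stated in the sources used here. The p-values therefore measure only the spread between these samples.

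The corn oil libraries held 16473902 to 36132316 counts and the tamoxifen libraries 6899347 to 19462115, with replicate 6 the shallowest. Levels are given as normalised CPM, which are CPM scaled by library factors. The gene that tamoxifen is meant to delete, Slc7a11, had 23.2 to 40.1 normalised CPM with corn oil and 5.90 to 19.3 with tamoxifen, without overlap (log2 fold change -1.41, edgeR adjusted p 0.311). The keratins Krt18 and Krt19 were abundant in every library, at 3185 to 10013 and 1309 to 5912. Tamoxifen replicates 1 to 3 resembled each other (Pearson's r across genes 0.921 to 0.963) more than any other pair of libraries did (0.723 to 0.878). The labels do not say whether these 3 share an animal, and values without them are given beside the members that moved most.

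Vim and Twist1 stood apart from the other members: for each, the lowest of the 6 tamoxifen values exceeded the highest of the 4 corn oil values. Zeb1, Zeb2 and Snai2 each had 4 of 6 tamoxifen libraries above the corn oil range: replicates 1, 2, 3 and 5 for Zeb1 and Snai2, and replicates 1, 4, 5 and 6 for Zeb2. Esrp1, Esrp2 and Grhl2 had lower means with tamoxifen, with wide overlap. In bulk samples such as these, fewer cells of a type and less RNA per cell cannot be told apart. No member passed an FDR of 0.05 in edgeR's quasi-likelihood test adjusted over all genes, where 0.0384% of tested genes did, 0.00769% higher and 0.0308% lower. At an unadjusted p under 0.05 there were 2 members, both higher, against 9.7% of tested genes in either direction, 4.43% higher and 5.27% lower.

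**Figure D1:**
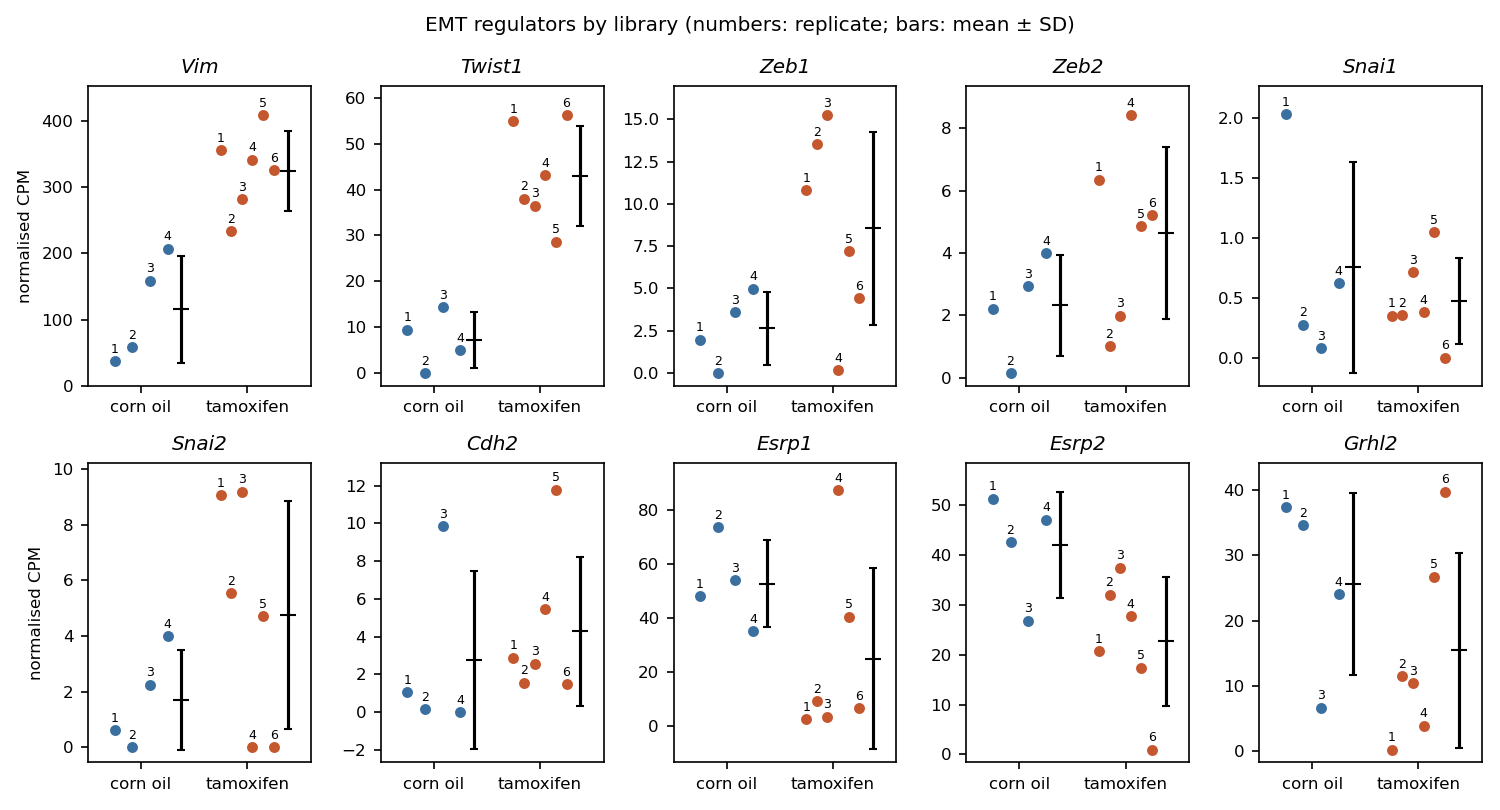
Normalised CPM (vertical axes, linear) of the 10 members in each corn oil (blue, n = 4) and tamoxifen (orange, n = 6) library, with the replicate number beside each point and the group mean ± SD as a black bar. Vim and Twist1 show no overlap between groups; the other 8 members overlap.

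Vim encodes vimentin, the intermediate filament of mesenchymal cells and the classic marker of the transition. It lies on chromosome 2 at 13573927 to 13582826 on the plus strand of GRCm38. With corn oil it stood at 37.6, 58.5, 159 and 207 normalised CPM in replicates 1 to 4. With tamoxifen it stood at 356, 234, 282, 341, 409 and 325 in replicates 1 to 6. The groups did not overlap, but the gap between corn oil replicate 4 and tamoxifen replicate 2 was small beside the spread within either group. The means were 116 ± 80.9 (SD, n = 4) and 324 ± 60.7 (SD, n = 6). Vim had a log2 fold change of 1.49 (SE 0.42). The edgeR p was 0.00392 before and 0.258 after adjustment over all genes, which ranked Vim at 198 of 13006.

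Twist1, a basic helix-loop-helix factor of mesoderm and neural crest that represses Cdh1, lies on chromosome 12 at 33957671 to 33959829 on the plus strand. In corn oil replicates 1 to 4 it stood at 9.42, 0, 14.4 and 5.03 normalised CPM. The 0 of corn oil replicate 2 allows up to 0.0915 normalised CPM, counting error only. In tamoxifen replicates 1 to 6 it stood at 54.9, 37.99, 36.5, 43.2, 28.6 and 56.2. The groups did not overlap, and the lowest tamoxifen library, replicate 5, lay well above the highest corn oil library, replicate 3. The means were 7.21 ± 6.14 (SD, n = 4) and 42.9 ± 10.9 (SD, n = 6). Twist1 had a log2 fold change of 2.57 (SE 0.96), with an edgeR p of 0.0194 before and 0.384 after adjustment. Its family member Twist2 was too low to be tested, with 6 libraries at 0.

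Genes whose groups did not overlap made up 3.23% of tested genes, 1.28% higher and 1.95% lower with tamoxifen, against these 2 of 10 members. Vim and Twist1 were also the members without overlap under RLE and upper-quartile scaling. Leaving out libraries can only add to such a count, so it is no check of these 2 genes. With tamoxifen replicates 4 to 6 alone it added Zeb2, and 2.66% of tested genes were then higher without overlap. In that reduced set the log2 fold change was 1.63 for Vim and 2.57 for Twist1, with edgeR adjusted p of 0.965 and 0.980. Over its alternatives the adjusted p ran from 0.0154 to 0.965 for Vim and from 0.0498 to 0.980 for Twist1. DESeq2 gave Vim an adjusted p of 0.0312 and Twist1 0.0813, and called 1.89% of genes, 0.948% higher and 0.940% lower. Limma voom with sample quality weights gave Vim 0.0154 and Twist1 0.0498 and called 9.62% of genes, 2.68% higher and 6.94% lower. Esrp1 was the other member that voom called, with a log2 fold change of -2.85 and an adjusted p of 0.00569.

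The upstream DNA of Twist1 and of Snai1 is shown because Twist1 was the mesenchymal transcription factor without overlap between groups and Snai1 the one with a lower mean under tamoxifen, and because both have a window in the RefSeq table (GRCm38.p6). Snai1 was near the limit of detection and no direction can be given for it, so the windows do not contrast a higher with a lower gene. The windows cover the 250 bases before the start site on the plus strand, chr12:33957421-33957670 for Twist1 and chr2:167537945-167538194 for Snai1. Capitals mark CANNTG (the E-box), CCAAT and TATAAA, searched on both strands, so that CCAAT reads ATTGG where it lies on the other strand. CACCTG, the E-box form bound by SNAIL and ZEB factors, is contained in CANNTG.
Twist1: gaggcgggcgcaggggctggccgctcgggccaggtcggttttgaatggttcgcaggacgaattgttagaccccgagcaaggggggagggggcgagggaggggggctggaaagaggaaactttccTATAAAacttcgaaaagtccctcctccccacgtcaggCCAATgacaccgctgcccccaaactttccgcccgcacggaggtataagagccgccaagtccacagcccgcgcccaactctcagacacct
Snai1: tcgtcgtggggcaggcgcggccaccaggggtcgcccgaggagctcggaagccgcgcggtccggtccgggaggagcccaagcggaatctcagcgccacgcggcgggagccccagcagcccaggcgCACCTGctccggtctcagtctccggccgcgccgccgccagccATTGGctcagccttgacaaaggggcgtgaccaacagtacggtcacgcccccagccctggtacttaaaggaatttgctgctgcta
The Snai1 window holds 1 E-box, of the CACCTG form, at -126 to -121, and the Twist1 window holds none. Among 32851 windows of this length, 66.2% hold a CANNTG, 17.2% a CACCTG, 33.8% a CCAAT and 12.4% a TATAAA. The windows are 62.4% and 70% G and C. These are matches of letters and not shown binding sites.

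Zeb1 and Zeb2, zinc finger repressors of Cdh1 and other junction genes, differed from each other in which libraries held them. Zeb1, on chromosome 18, shares 198 exon bases with the antisense gene Gm10125. Zeb1 stood at 1.97, 0, 3.59 and 4.99 normalised CPM in corn oil replicates 1 to 4. In tamoxifen replicates 1 to 6 it stood at 10.8, 13.5, 15.3, 0.188, 7.21 and 4.41. Replicates 1, 2, 3 and 5 lay above every corn oil library, whereas replicate 4 had 3 reads, at the floor of 3 counts used here. Its log2 fold change was 1.70 (SE 1.27), with an edgeR adjusted p of 0.740, and 0.58 without tamoxifen replicates 1 to 3.

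Zeb2 (chromosome 2, 44983632 to 45117395, minus strand) shares 653 exon bases with the antisense gene Zeb2os. The kits do not mark strand, and how reads in shared bases were counted is not stated in the sources used here. Zeb2 stood at 2.22, 0.152, 2.94 and 3.99 normalised CPM in corn oil replicates 1 to 4. In tamoxifen replicates 1 to 6 it stood at 6.36, 1.01, 1.99, 8.42, 4.87 and 5.23. Here replicates 2 and 3, the libraries with the most Zeb1, were the lowest of the tamoxifen group, and replicate 4, nearly without Zeb1, was the highest. Zeb2 had a log2 fold change of 0.996 (SE 0.98), with an edgeR adjusted p of 0.822.

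The split can be read within each library, free of scaling, as the share of Zeb1 among the reads of both ZEB genes. That share was 93.1% (95% Clopper-Pearson interval 89.5 to 95.7) in tamoxifen replicate 2 and 88.5% (84.7 to 91.6) in replicate 3. It was 2.19% (0.454 to 6.27) in replicate 4. In tamoxifen replicates 1, 5 and 6 it was 62.9%, 59.7% and 45.8%, beside 47.1%, 54.9% and 55.6% in corn oil replicates 1, 3 and 4. Corn oil replicate 2 had 5 reads of the pair in all. The 6 tamoxifen libraries thus ran from 2.19% to 93.1% and the 3 corn oil libraries with more than 5 reads from 47.1% to 55.6%. The intervals cover counting error only, not amplification or the tissue sampled, and the spread was not tested.

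Both ZEB messages are textbook targets of the miR-200 family, microRNAs of epithelial cells that the ZEB proteins in turn repress. MicroRNAs are not measured by these libraries. The mature sequences are shown to make the pairing with the 3′ untranslated region visible, from RefSeq (GRCm38.p6), with the seed (bases 2 to 8) in capitals. The first 3 share a seed and so do the last 2.
miR-200b-3p: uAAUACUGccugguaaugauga
miR-200c-3p: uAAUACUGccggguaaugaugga
miR-429-3p: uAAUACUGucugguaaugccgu
miR-200a-3p: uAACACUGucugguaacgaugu
miR-141-3p: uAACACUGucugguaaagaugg
The complements of these seeds, CAGTATT and CAGTGTT, were searched on the transcript strand of the longest annotated 3′ untranslated region per gene in GENCODE M21. Zeb1 and Zeb2 each hold 9 matches, 5 of CAGTATT and 4 of CAGTGTT, in 2.40 and 4.94 kb. Of 2652 regions within 80 to 120% of the length of Zeb1's, 46.6% hold at least 1 match, and of 1045 near the length of Zeb2's, 66.1% do. The share with as many as 9 was 0% in both sets. A match is a run of letters and not a shown site of repression. From the 9 in Zeb2, 3 are printed 5′ to 3′ on the minus strand with the match in capitals, at chr2:44988173-44988195, chr2:44988108-44988130 and chr2:44987825-44987847 of GRCm38.
Zeb2 at base 393: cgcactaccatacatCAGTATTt
Zeb2 at base 458: cgcactacagtgcatCAGTATTa
Zeb2 at base 741: agtgccatccttgtaCAGTGTTc
Bases are counted from the first after the stop codon.

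Snai1 and Snai2 encode SNAIL and SLUG, zinc finger repressors that act early in the transition. Snai1 was near the limit of detection: 6 of 10 libraries had fewer than 10 reads, and its highest value was 2.03 normalised CPM, in corn oil replicate 1. With corn oil it ranged from 0.0806 to 2.03 and with tamoxifen from 0 to 1.04. The log2 fold change of -0.63 (SE 1.21) had an edgeR adjusted p of 0.932 and was 0.55 without corn oil replicate 1, so no direction can be given.

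Snai2 was read in 7 libraries and not detected in 3. With corn oil it stood at 0.616, 0, 2.26 and 3.99 normalised CPM. With tamoxifen it stood at 9.06, 5.55, 9.19, 0, 4.72 and 0. The same 4 tamoxifen libraries that led for Zeb1, replicates 1, 2, 3 and 5, led for Snai2, and replicates 4 and 6 had no read, which allows up to 0.188 and 0.490. Its log2 fold change was 1.47 (SE 1.64), with an edgeR adjusted p of 0.854. Without tamoxifen replicates 1 to 3 it was -0.11.

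Cdh2, N-cadherin, is the adhesion molecule that can replace E-cadherin in the transition. It stood at 1.05, 0.152, 9.83 and 0 normalised CPM with corn oil. With tamoxifen it stood at 2.87, 1.56, 2.56, 5.47, 11.8 and 1.47. Corn oil replicate 3 was far above the rest of its group, and without it all tamoxifen libraries lay above all corn oil libraries. The choice of library fixed this in advance, because only corn oil replicate 3 reached into the tamoxifen range. The log2 fold change without that library was 3.43 (edgeR adjusted p 0.529), against 0.64 (SE 1.36, edgeR adjusted p 0.940) with all libraries. Cdh1, E-cadherin itself, had similar means in both groups, at 603 ± 220 (SD, n = 4) and 593 ± 164 (SD, n = 6). Its log2 fold change was -0.02 (SE 0.30).

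**Figure D2:**
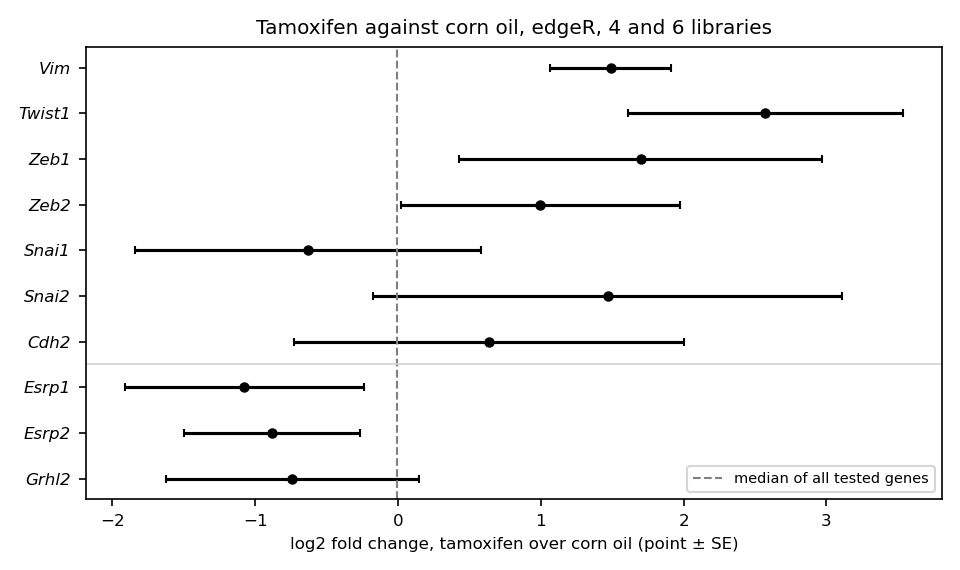
Log2 fold change (horizontal axis, tamoxifen over corn oil) of each member from the edgeR fit on 4 and 6 libraries, as point ± SE; the dashed line is the median of all tested genes, -0.01. Vim and Twist1 lie farthest from that line relative to their SE, and the 3 epithelial members at the bottom all lie below it.

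Among the epithelial members, Esrp1 and Esrp2 encode RNA-binding proteins that set epithelial splice forms of genes such as Fgfr2 and Cd44. Gene totals do not show splice forms, so only the level of the regulators is described. Esrp1 lies on chromosome 4 at 11331933 to 11386783 and Esrp2 on chromosome 8 at 106130319 to 106136974, both transcribed from the minus strand. Each shares some exon bases with genes on the opposite strand, 127 for Esrp1 and, for Esrp2, 219 with Nfatc3 and 119 with 1810019D21Rik.

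Esrp1 stood at 48.1, 73.7, 53.9 and 35.1 normalised CPM in corn oil replicates 1 to 4. In tamoxifen replicates 1 to 6 it stood at 2.61, 9.23, 3.41, 87.1, 40.4 and 6.70. The tamoxifen group thus divided: replicates 1, 2, 3 and 6 lay below every corn oil library, replicate 5 within their range and replicate 4 above it. The means were 52.7 ± 16.02 (SD, n = 4) and 24.9 ± 33.6 (SD, n = 6). Esrp1 had a log2 fold change of -1.08 (SE 0.84) with an edgeR adjusted p of 0.751. Leaving out tamoxifen replicate 4 gave -2.07 and leaving out tamoxifen replicates 1 to 3 gave -0.23. Over its alternatives the adjusted p ran from 0.00569 to 0.994.

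Esrp2 stood at 51.3, 42.6, 26.8 and 47.0 normalised CPM in corn oil replicates 1 to 4. In tamoxifen replicates 1 to 6 it stood at 20.7, 32.0, 37.4, 27.7, 17.4 and 0.980. Replicates 1, 5 and 6 lay below the corn oil range, and replicate 6 had 6 reads. Esrp2 had a log2 fold change of -0.88 (SE 0.62), with an edgeR adjusted p of 0.715. Without corn oil replicate 3 every tamoxifen library was below every corn oil library. That choice fixed the outcome in advance, because only this corn oil library lay within the tamoxifen range. The log2 fold change without it was -1.04, with an edgeR adjusted p of 0.725.

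The balance of the ESRP genes also differed between libraries. Of the reads of both genes, Esrp1 took 42.8% to 66.7% in the corn oil libraries. It took 11.2% (95% Clopper-Pearson interval 7.68 to 15.6), 22.4% (19.6 to 25.4) and 8.35% (6.59 to 10.4) in tamoxifen replicates 1 to 3. In tamoxifen replicates 4 to 6 it took 75.9% (73.8 to 77.8), 69.97% (67.2 to 72.6) and 87.2% (74.3 to 95.2). The corn oil libraries lay between these sets, although the interval of tamoxifen replicate 5 overlapped that of corn oil replicate 3 (64.6 to 68.8). Per length of annotated exon, the Esrp1 share was 34.0% to 58.0% with corn oil, 5.90% to 16.6% in tamoxifen replicates 1 to 3 and 61.6% to 82.5% in replicates 4 to 6. The division was noticed in these data and was not tested.

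**Figure D3:**
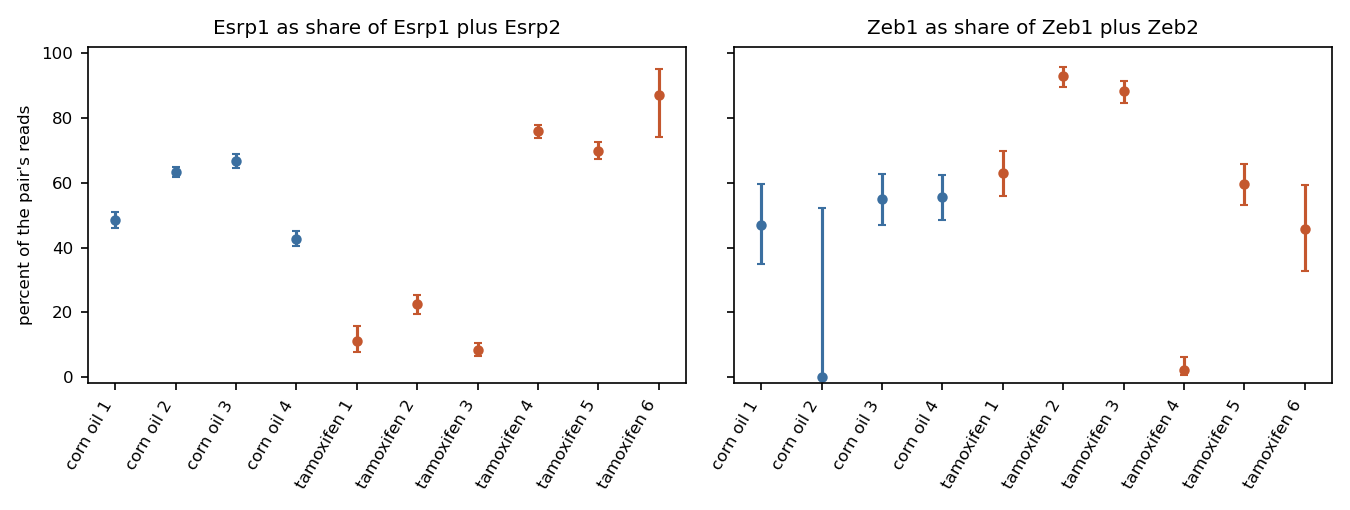
Share of Esrp1 among the reads of Esrp1 and Esrp2 (left) and of Zeb1 among the reads of Zeb1 and Zeb2 (right), in percent, for each library, with 95% Clopper-Pearson intervals; corn oil blue, tamoxifen orange. Tamoxifen replicates 1 to 3 lie below and replicates 4 to 6 above the corn oil libraries for Esrp1, and tamoxifen replicate 4 is lowest among the libraries with more than 5 reads of the ZEB pair.

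Grhl2, a grainyhead factor that activates Cdh1, claudin and Esrp1 genes, lies on chromosome 15 at 37233036 to 37363569 on the plus strand and shares 169 exon bases with the antisense gene Gm16136. With corn oil it stood at 37.4, 34.6, 6.65 and 24.0 normalised CPM in replicates 1 to 4. With tamoxifen it stood at 0.261, 11.5, 10.4, 3.90, 26.7 and 39.7 in replicates 1 to 6. Tamoxifen replicate 1 had 3 reads and replicate 6, the shallowest library, had the highest level of all 10. Both groups therefore spanned low and high libraries, and the log2 fold change was -0.74 (SE 0.88, edgeR adjusted p 0.869). It was -0.48 without tamoxifen replicate 1, -1.28 without tamoxifen replicate 6 and -0.13 without tamoxifen replicates 1 to 3.

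Read together by library, the members did not switch as a block. Corn oil replicate 2 had 0 of 7 mesenchymal members and 3 of 3 epithelial members above their median over the 10 libraries. Tamoxifen replicate 1 was its opposite, with 6 of 7 and 0 of 3. In between, tamoxifen replicate 5 had 6 of 7 mesenchymal and 2 of 3 epithelial members above their medians. Tamoxifen replicate 4 had 5 of 7 and 1 of 3. The groups overlapped on this count. Corn oil replicate 4 had 4 of 7 and 2 of 3, while tamoxifen replicates 2 and 6 each had 3 of 7 and 1 of 3. The median log2 fold change was 1.47 over the 7 mesenchymal members and -0.88 over the 3 epithelial members, beside -0.01 over all tested genes. Of the 7, 6 were higher and Snai1 lower, and all 3 epithelial members were lower. The signs of Zeb2, Snai1, Snai2 and Cdh2 changed under some alternatives.

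Compared per kb of annotated exon, Vim was the most abundant member in both groups, at 24.4 ± 17.1 normalised CPM per kb with corn oil and 68.4 ± 12.8 with tamoxifen (SD, n = 4 and n = 6). With corn oil Esrp2 (9.66 ± 2.46) and Esrp1 (8.36 ± 2.54) came next on that scale, which do not differ beyond their spread, then Twist1 (4.43 ± 3.77) and Grhl2 (2.98 ± 1.62). With tamoxifen Twist1 came second, at 26.3 ± 6.68, ahead of Esrp2 at 5.23 ± 2.97 and Esrp1 at 3.95 ± 5.33. Zeb2 had the lowest mean per kb in both groups, at 0.117 ± 0.0813 and 0.233 ± 0.138, after division by 19.9 kb of annotated exon over all its transcripts. Without division by length Snai1 had the lowest mean, at 0.753 and 0.472 normalised CPM, against 2.33 and 4.65 for Zeb2. Snai2, Snai1, Cdh2 and Zeb1 had means between 0.257 and 2.35 per kb, with spreads that overlap.

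Because these genes are also expressed in stroma, marker lists of other cells were summed in each library. The 12 fibroblast markers, led by Col3a1 and Col1a2, summed to 129 to 469 normalised CPM with corn oil and 135 to 1054 with tamoxifen. Of 11 tested, 10 were higher with tamoxifen, 0 passed the FDR and 2 had an unadjusted p under 0.05. Their median log2 fold change was 0.79 in edgeR, but its sign was not stable over the alternatives. Voom gave the lowest median, -0.052, and dropping corn oil replicate 4 the highest, 1.35. Among single left-out libraries the lowest median was 0.56, reached by dropping corn oil replicate 2. The smallest p belonged to Dcn and Lum, matrix proteoglycans, at 2.28 and 2.36. None of the defining collagens Col1a1, Col1a2 and Col3a1 was at 0 in any library.

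Vim and Twist1 can be set beside these sums. Tamoxifen replicate 2 had a fibroblast sum of 135, close to the lowest corn oil library, replicate 2, at 129. By mean log2 CPM of the same markers these libraries stood further apart, at 1.90 and 0.75. Tamoxifen replicate 2 held 234 normalised CPM of Vim and 37.99 of Twist1. Corn oil replicate 4 had the highest fibroblast sum of its group, 469, and held 207 of Vim and 5.03 of Twist1. With the mean fibroblast marker level as a covariate the log2 fold change was 1.15 for Vim and 2.24 for Twist1, with edgeR adjusted p of 0.381 and 0.520. Without tamoxifen replicates 4 and 6, the libraries with the highest fibroblast sums, the log2 fold change was 1.47 for Vim and 2.45 for Twist1. The mean log2 CPM of the markers ranks the libraries otherwise. On that measure tamoxifen replicates 1 and 5, at 3.43 and 3.11, exceeded replicate 6, at 2.91, and every corn oil library, at most 2.86. Without replicates 4 and 6, Zeb1 and Snai2 also had no overlap between groups. The choice of libraries fixed this in advance, because for both genes only these tamoxifen libraries were not above the corn oil range. Zeb1 and Snai2 were at 0.188 and 0 in tamoxifen replicate 4, where the fibroblast sum was highest, at 1054. The part of fibroblasts in the Vim, Twist1 and Snai2 values was not tested.

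The 10 macrophage markers, led by Lyz2 and C1qb, summed to 571 to 854 with corn oil and 128 to 1426 with tamoxifen, with 8 of 10 lower and a median log2 fold change of -0.43. That median was -1.09 without tamoxifen replicate 4, -0.21 without tamoxifen replicate 3 and 0.26 without tamoxifen replicates 1 to 3. Zeb2, which macrophages express, was highest in tamoxifen replicate 4, where that sum was 1426, and lowest of its group in replicates 2 and 3, where it was 152 and 128. Elsewhere Zeb2 did not follow that sum: tamoxifen replicate 1 had 384 with the second highest Zeb2, 6.36, while corn oil replicates 1 and 2 had 854 and 571 with Zeb2 at 2.22 and 0.152. With the fibroblast covariate the log2 fold change of Zeb2 was -0.17 and that of Cdh2 -0.13, against 0.996 and 0.64 without it. Among the epithelial members the covariate gave -2.43 for Esrp1, -0.76 for Esrp2 and -0.13 for Grhl2. Their values without it were -1.08, -0.88 and -0.74. The part of these markers in the ZEB, cadherin and epithelial member values was not tested. Smooth muscle and pericyte markers (7) summed to 27.2 to 71.9 with corn oil and 29.7 to 278 with tamoxifen, with 6 of 7 higher and a median of 1.28, which was 0.28 without tamoxifen replicate 6. Endothelial markers (8) summed to 5.73 to 53.2 and 5.27 to 62.6. The 6 lymphocyte markers found in the table summed to at most 2.01 and the 3 Schwann cell markers to 8.83 to 28.6, mostly S100b. Neutrophil markers (5) summed to 3.20 to 158 and 4.79 to 130, acinar markers (5) to 17.2 to 204 and 33.1 to 86.9, and islet markers (4) to 1.996 to 180 and 0. The 7 ductal epithelium markers summed to 15405 to 30577 with corn oil and 14532 to 25260 with tamoxifen, with 6 of 7 lower and a median of -0.39. Leaving out corn oil replicate 4 brought that median to 0.00087, leaving out replicate 3 to -0.65, and leaving out tamoxifen replicates 1 to 3 to -0.0090.

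**Figure D4:**
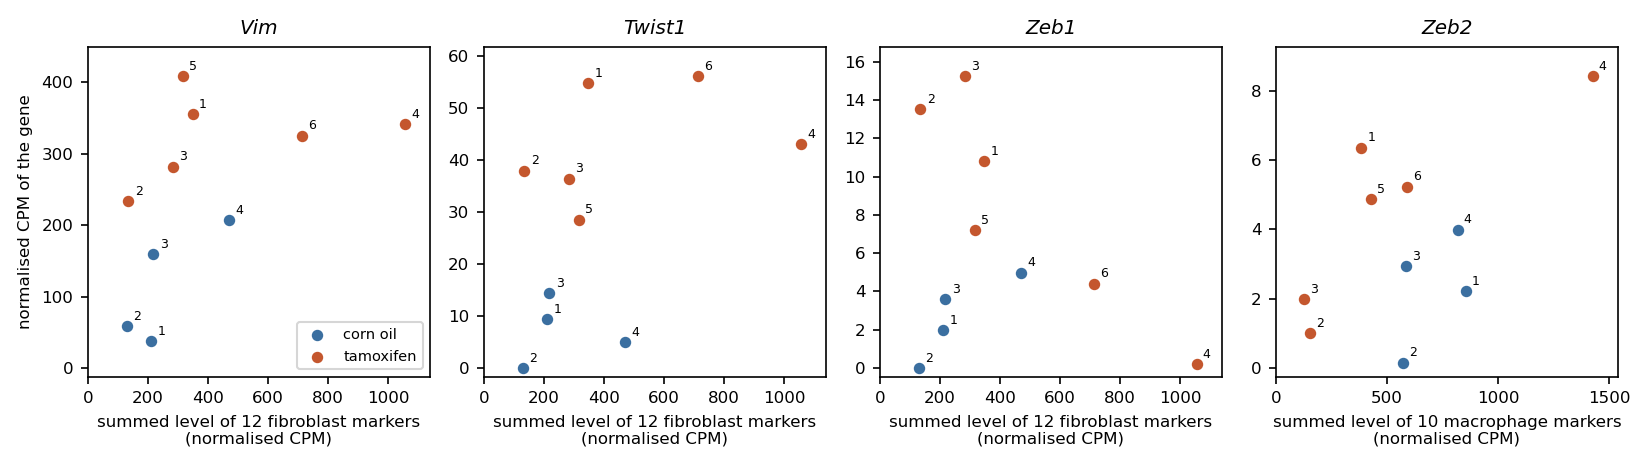
Normalised CPM of Vim, Twist1, Zeb1 (against the summed level of 12 fibroblast markers) and Zeb2 (against 10 macrophage markers) in each library; corn oil blue, tamoxifen orange, numbers are replicates. Tamoxifen replicates 1, 2, 3 and 5, at fibroblast sums of 135 to 348, lie above all corn oil libraries for Vim and Twist1, and tamoxifen replicate 4, at 1054, has almost no Zeb1. By mean log2 CPM of the same markers, not drawn here, tamoxifen replicates 1 and 5 exceed every corn oil library.

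The other genes of the program were taken from lists of targets, partners and upstream signals. Of 20 epithelial genes under SNAIL, ZEB or GRHL2 control, 16 were lower with tamoxifen, 0 passed the FDR and 5, all lower, had an unadjusted p under 0.05, with a median of -0.43. Beside this and the following lists stand the shares over all tested genes, of which 49.3% were higher with tamoxifen. At an unadjusted p under 0.05, 4.43% were higher and 5.27% lower, and 1.95% were lower without overlap. The smallest p among the 20 epithelial genes belonged to Rab25, a GTPase of apical recycling, and Crb3, a polarity protein. Rab25 had a mean of 182 ± 76.2 normalised CPM in the 4 corn oil libraries, against 50.3 ± 44.2 in the 6 tamoxifen libraries (SD). Its log2 fold change was -1.85, with SE 0.53 and an edgeR adjusted p of 0.261. Crb3 had a mean of 198 ± 24.4 in the 4 corn oil libraries, against 109.6 ± 30.7 in the 6 tamoxifen libraries (SD), without overlap. Its log2 fold change was -0.85, with SE 0.25 and an edgeR adjusted p of 0.271.

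Of 11 other epithelial transcription factors 6 were lower, 0 passed and 1 had an unadjusted p under 0.05, with a median of -0.23, which was -0.54 without tamoxifen replicate 4, -0.12 without tamoxifen replicate 1 and -0.0017 without replicates 1 to 3. Foxa1, a pioneer factor of endodermal epithelia, was the exception in size. It stood at 40.3, 67.7, 59.1 and 66.7 normalised CPM with corn oil and at 2.35, 5.35, 2.61, 17.7, 0.895 and 0.163 with tamoxifen. The groups did not overlap, with a log2 fold change of -3.58 (SE 0.84) and an edgeR adjusted p of 0.166, which was 0.0445 without tamoxifen replicate 4 and ran from 0.000404 to 0.973 over its alternatives. DESeq2 and voom gave Foxa1 adjusted p of 0.00220 and 0.000404. Its relative Foxa2 had a log2 fold change of 0.44 (SE 0.31), in the opposite direction, and 0.091 without tamoxifen replicates 1 to 3.

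Of 15 mesenchymal effectors 11 were higher, 0 passed and 6, all higher, had an unadjusted p under 0.05, with a median of 0.54. Leaving out corn oil replicate 2 brought that median to 0.29 and leaving out replicate 4 to 1.09. Over all tested genes 49.3% were higher, 4.43% were higher at an unadjusted p under 0.05 and 1.28% were higher without overlap. The 3 effectors without overlap between groups were Ncam1, a neural adhesion molecule, Mmp14, a membrane-bound collagenase, and Axl, a receptor tyrosine kinase named here after its values were seen. Ncam1 had a mean of 5.27 ± 4.15 in the 4 corn oil libraries, against 30.7 ± 27.2 in the 6 tamoxifen libraries (SD). Its log2 fold change was 2.54, with an edgeR adjusted p of 0.253. Mmp14 went from 168 ± 59.3 to 321 ± 63.8 and Axl from 43.2 ± 27.6 to 113 ± 17.3 (SD, n = 4 and n = 6), log2 fold changes of 0.94 and 1.39. Of 9 tested mesenchymal factors outside the members, 6 were higher, and 0 passed the FDR or had an unadjusted p under 0.05, with a median of 0.49, which was 0.25 without tamoxifen replicate 5 and 0.78 without corn oil replicate 4. The 2 of smallest p were Foxc1 at 1.26 and Tcf4, an E protein that partners TWIST1, at 0.49. The 3 lower genes were Snai3 at -1.70 (SE 1.28), the largest change in this list, Tcf12 at -0.59 and Sox4 at -0.11.

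The TGF-beta pathway is the best known inducer of the transition. Of 18 genes 8 were higher and 10 lower, with a median of -0.01, 0 past the FDR and 1 at an unadjusted p under 0.05. Leaving out corn oil replicate 3 brought the median to 0.27, and leaving out tamoxifen replicates 1 to 3 to 0.40. Smad4, the shared partner of the receptor-activated SMADs, was the gene with the smallest p, at 92.9 ± 25.3 (SD, n = 4) and 275 ± 133 (SD, n = 6) normalised CPM. Smad4 had a log2 fold change of 1.56, with SE 0.36, an edgeR adjusted p of 0.154 and no overlap between groups, and Smad2 was at 0.57 (SE 0.27). Of 8 other splicing factors tied to the transition 4 were higher, with Qk, the quaking RNA-binding protein, at 1.04 and Mbnl2 at -0.52. Immediate early genes, which respond to tissue handling, had 5 of 8 higher and a median of 0.19, with Dusp1 at 1.44 and Egr1 at 1.94. The sign of that median was not stable: it was -0.11 without tamoxifen replicate 5, 0.71 without corn oil replicate 4 and -0.35 with the fibroblast covariate. In these last lists 0 genes passed the FDR, while 1 splicing factor and 2 immediate early genes had an unadjusted p under 0.05.

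The genes most like a member across the 10 libraries were sought for Vim and Esrp1, the members with at least 10 reads in every library. Among 8764 genes, Cav1 (r = 0.940), Eif1 (0.923) and Phf23 (0.922) were nearest to Vim. Nearest to Esrp1 were Il18r1 (0.983), 2610528J11Rik (0.979) and Ckmt1 (0.960), and Il18r1 itself had a log2 fold change of -1.44 (edgeR adjusted p 0.512). These Pearson correlations describe 10 libraries that share scaling and, for tamoxifen replicates 1 to 3, much of their profile.

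**Figure D5:**
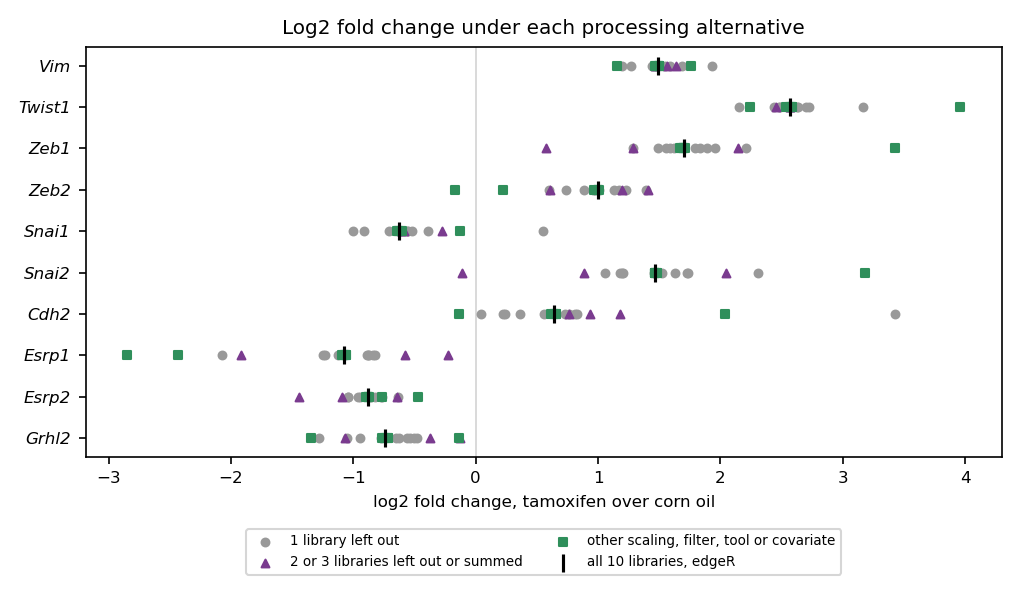
Log2 fold change (horizontal axis, tamoxifen over corn oil) of each member with all 10 libraries in edgeR (black tick) and under each alternative: 1 library left out (grey), 2 or 3 left out or summed (purple), another scaling, filter, tool or covariate (green). Vim runs from 1.15 to 1.93 and Twist1 from 2.16 to 3.96, while Zeb2, Snai1, Snai2 and Cdh2 cross 0.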

How the data were processed

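The deposited table holds raw counts, whole reads per gene, as the authors made them. The submitters' processing notes name bcl2fastq 2.17, STAR 2.5.2b, featureCounts 1.5.0-p3 and mm10; annotation, strand setting and multi-mapping rule are not stated in the sources used here. Per the labels' protocols, libraries were SMART-seq v4 with Nextera XT, which do not mark strand.

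All 13006 genes passing filterByExpr were fitted with edgeR 4.0.16 in R 4.3.3 (TMM factors, quasi-likelihood F test, Benjamini-Hochberg over all genes). The SE is the absolute log2 fold change divided by the square root of F. DESeq2 1.42.0 and limma 3.58.1 (voom) were alternatives, beside other scalings, filters, a fibroblast covariate and left-out libraries. The fit was tested on simulated data. Positions and exon lengths came from GENCODE M21 on GRCm38, microRNA and upstream sequences from RefSeq, and 3′ untranslated regions from the GENCODE M21 transcripts. Figures used matplotlib 3.10.9.

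Members and lists were chosen with earlier results of these data known. Text names all members, Slc7a11, and per gene list and for fibroblasts the 2 genes of smallest p (none passed the FDR); the 2 most abundant markers are named for fibroblasts and macrophages, and other marker lists by totals, apart from Krt18 and Krt19. Cdh1, Axl, Twist2, Snai3, Tcf12, Sox4, Col1a1 and S100b are named outside this rule, chosen after their values were seen. The nearest genes by Pearson's r are named for Vim and Esrp1. Of the listed genes, 2 were matched through older symbols.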

Additional observations from a re-analysis of the deposited data

Results flagged for a closer look

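In 12 of 92 groups of libraries examined 1 library stood far from the rest, by a rule with a nominal rate of 1 in 20. That rate cannot serve as a measure of chance here, because the groups share the same libraries and some hold values near 0. Among the members this was Cdh2 in corn oil replicate 3 (9.83 normalised CPM, others 0 to 1.05).

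In the tamoxifen group, replicate 4 exceeded the others in the fibroblast genes Dcn (291 against 20.5 to 122) and Lum (81.2 against 2.98 to 31.2), in Foxa1 (17.7 against 0.163 to 5.35) and in summed macrophage markers (1426 against 128 to 589). Replicate 6 exceeded the others in Dusp1 (340 against 122 to 188), in summed smooth muscle and pericyte markers (278 against 29.7 to 78.9) and in summed neutrophil markers (129.6 against 4.79 to 31.3). In the corn oil group, replicate 1 had the most islet marker reads (179.6 against 1.996 to 8.02) and replicate 3 the most lymphocyte marker reads (0.322 against 0 to 0.0416), all in normalised CPM. Lum was low in replicate 2 (0.579 against 5.28 to 6.10) and Foxc1 in replicate 4 (1.91 against 13.7 to 15.9).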

How the results depend on the processing

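In 196 of 204 values over 21 alternatives the members kept their direction and their side of the FDR. The number of members past it was 1 in DESeq2 and 3 in voom, and 0 with any 1 library left out. Vim was called by both, at 1.497 and 1.76, Twist1 at 3.96 and Esrp1 at -2.85 by voom. The direction changed for Zeb2 (-0.17) and Cdh2 (-0.13) with the fibroblast covariate, for Snai1 without corn oil replicate 1 (0.55, with -1.01 to 0.55 over single left-out libraries) and for Snai2 without tamoxifen replicates 1 to 3 (-0.11). Members without overlap numbered 2 to 4 with 1 library left out (4 without corn oil replicate 3) and 4 without tamoxifen replicates 4 and 6; alternatives for this count were chosen after seeing the data, and leaving out libraries can only raise it. The mesenchymal median ran from 1.056 to 2.04 and the epithelial from -1.34 to -0.23. Over all genes edgeR called 5 at an FDR of 0.05 (1262 at an unadjusted p under 0.05), 18 at 0.1, 0 to 11 with 1 library left out (0 when the library left out was corn oil 1 or 3 or tamoxifen 1, 2 or 3; 1 for corn oil 4; 2 for corn oil 2; 9 for tamoxifen 5; 11 for tamoxifen 4), 0 with tamoxifen replicates 1 to 3 summed as 1 sample (709 unadjusted) or left out (602 unadjusted), and 77 without tamoxifen replicates 4 and 6, while DESeq2 called 243 and voom 1251. The cause was not tested. Col1a2 was at -0.26 and Col3a1 at -0.052 in voom, and Col3a1 at -0.070 with the fibroblast covariate, against 0.73 and 0.75 with all libraries in edgeR; over all alternatives Col1a2 ran from -0.26 to 1.23 and Col3a1 from -0.070 to 1.48. No paired analysis was possible because the labels carry no shared replicate numbers. Snai1, Snai2, Cdh2 and Zeb1 each had at least 2 libraries under 10 reads; the deepest library, corn oil replicate 2, was among them for all 4.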
